A study of Mus musculus with 3 samples.

Results

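The guanylate-binding proteins (GBPs) and immunity-related GTPases (IRGs) were followed through 10 genes taken by symbol: Gbp2, Gbp3, Gbp4, Gbp5, Gbp6, Gbp7, Gbp8, Gbp9, Irgm1 and Igtp. All 10 were found among the 55536 annotated genes. RNA was sequenced in 3 libraries of macrophages grown from bone marrow of C57BL/6J mice. The cells had received 100 ng/ml lipid A for 12 h, then 12 h without it, and a second dose of 100 ng/ml for 90 min. Lipid A is the membrane anchor of bacterial lipopolysaccharide and is sensed by Toll-like receptor 4. Ribosomal RNA was removed from total RNA of the chromatin fraction, which holds nascent and chromatin-held transcripts. The 3 libraries form 1 condition, and cells without lipid A or with a single exposure were not analysed here. The libraries carry biological replicate numbers 1 to 3, and the labels list the same donor entry for each and do not give age or sex. They do not say whether the replicates are separate cultures, so every SD and p below covers these libraries alone and may be technical. Starting RNA was 1000, 250 and 500 ng in replicates 1, 2 and 3, and the counts over annotated genes summed to 12502177, 21683473 and 16844974.

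GBPs are large GTPases of the dynamin superfamily that interferons induce strongly in macrophages. They gather on vacuoles that hold pathogens and on the surface of bacteria in the cytosol, where they bind lipopolysaccharide and favour activation of caspase-11, the product of Casp4. IRGs are smaller GTPases that act on the same vacuoles in mice. Irgm1 and Igtp (also called Irgm3) encode regulatory IRGs, which sit on the cell's own membranes and hold the effector IRGs in an inactive state. Toll-like receptor 4 reaches both families mainly through interferon beta, whose receptor signals to transcription factors that include STAT2 and IRF9.

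The nucleotide-binding loop is shown because it sets the regulatory IRGs apart from the GBP members. On chromosome 5, Gbp6, Gbp8 and Gbp9 share its bases, and Gbp4 differs from them. The 24 coding bases of the loop come from GENCODE M21 coding sequences, and the capitals mark its seventh codon.
Gbp2: ggcctctaccgcacaggcAAAtcc
Gbp5: ggtctttatcgcacaggcAAAtcc
Gbp7: ggactataccgtacgggaAAAtcc
Gbp3: ggtttatatcgtacagggAAGtcc
Gbp4: ggatggtcccatacagggAAGtcc
Gbp6, Gbp8 and Gbp9: ggattgtaccgtacagggAAGtcc
Irgm1 and Igtp: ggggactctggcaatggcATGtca
All 8 GBP members carry a lysine codon, AAA or AAG, at that place, and Irgm1 and Igtp carry the methionine codon ATG. The codon does not divide the families as a whole, since the IRG genes Ifi47, Tgtp1, Tgtp2 and Irgq, outside the 10, carry AAG there. The loop starts at codon 39 in Gbp3, at codon 43 in Gbp4, Gbp6, Gbp8 and Gbp9, and at codon 45 in Gbp2, Gbp5 and Gbp7. It starts at codon 83 in Irgm1 and at codon 91 in Igtp. Gbp6, Gbp8 and Gbp9 have the same bases throughout the loop, and so do Irgm1 and Igtp. Matches between coding sequences are given as a share of the shorter sequence of each pair. Gbp6 matched Gbp10, a GBP gene outside the 10, at 98.4% of bases, and each has 1833 coding bases. Gbp4 (1893 bases) matched Gbp11 (1326 bases) at 94.5%, and Gbp9 (1857 bases) matched Gbp11 at 93.1%. These are shares of the shorter Gbp11 and not of the whole Gbp4 or Gbp9 sequence. Gbp8 (1575 bases) matched the longer Gbp4 at 92.5%.

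All 10 genes were present on chromatin, and Gbp5 was the highest of them. Levels are in TPM, a relative abundance corrected for transcript length, and are given as mean ± SD over n = 3 libraries. Each of the 10 reached 10 TPM in each library, a limit passed by 19.1% of the 22015 protein-coding genes. Their levels reached from 12.7 TPM for Igtp in replicate 3 to 890.2 TPM for Gbp5 in replicate 1. Together the 10 genes summed to 1943, 1044 and 1133 TPM in replicates 1, 2 and 3, which was 0.570%, 0.382% and 0.386% of the TPM of protein-coding genes. Gbp5 alone made up 42.0% ± 4.43 of the family's sum and Gbp6 16.2% ± 1.79.

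**Figure D1:**
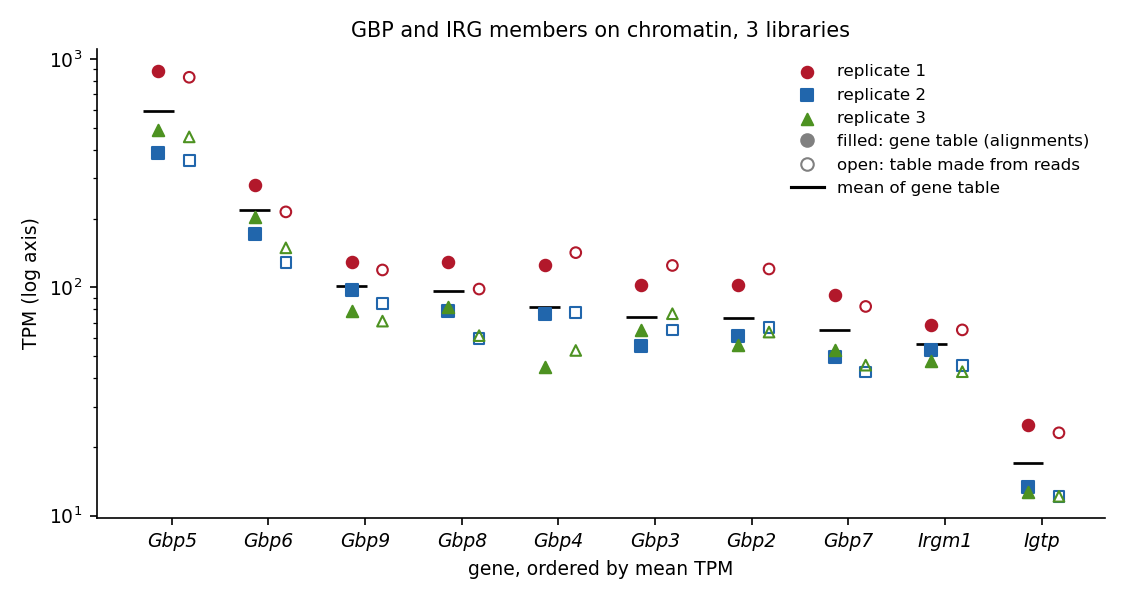
TPM on a log axis for each gene, ordered by mean. Filled symbols are the 3 libraries in the gene table, open symbols the same libraries in the table made from reads, and black bars the means of the gene table. Gbp5 lay at 388 to 890.2 TPM and Igtp at 12.7 to 25.0 TPM, and replicate 1 was the highest library for each gene.

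Gbp5, whose product carries a lipid anchor and is linked to NLRP3 inflammasome assembly, had 890.2, 388 and 489 TPM in replicates 1, 2 and 3 (589 ± 266). It ranked 27, 58 and 35 among protein-coding genes in these libraries. The gene lies on chromosome 3 from 142493978 to 142522344 on the plus strand (mm10). It stands first in a row of plus-strand GBP genes, followed by Gbp7 (142530342 to 142550149), Gbp3 (142560026 to 142573209), Gbp2b, which is not among the 10 (142594847 to 142619179), and Gbp2 (142620602 to 142638008). The other members in the row were each lower than Gbp5 in all 3 libraries. Gbp3 had 102, 55.4 and 65.1 TPM (74.2 ± 24.7). Gbp2, whose product coats vacuoles of Toxoplasma gondii, had 102, 61.4 and 55.9 TPM (73.2 ± 25.3). Gbp7 had 92.8, 49.7 and 53.3 TPM (65.3 ± 23.9). These 3 were similar in level to each other in the gene table, and each was highest in replicate 1.

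The chromosome 5 members lie on the minus strand. Gbp6, from 105270702 to 105293698, was the highest of them with 279.8, 170.5 and 203.8 TPM (218 ± 56.0). It was above every member but Gbp5 in each library. Gbp9 (105077630 to 105139539) had 129, 97.5 and 78.8 TPM (102 ± 25.3). Gbp8 (105014150 to 105139540) had 129, 79.1 and 82.1 TPM (96.6 ± 27.8). Gbp4 (105115767 to 105139586) had 125, 76.2 and 44.8 TPM (82.1 ± 40.6). The last 3 were close to each other in replicate 1, and Gbp4 lay well below the other two in replicate 3. Their annotated bodies overlap on the same strand, so how reads in the shared stretch were divided between them is uncertain.

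The IRG members were the lowest of the 10 by mean level. Irgm1, which is needed for resistance to mycobacteria and for clearance of damaged mitochondria, lies on chromosome 11 from 48861968 to 48871683 on the minus strand. It had 68.3, 53.1 and 47.5 TPM (56.3 ± 10.8). Igtp, whose product sits on the endoplasmic reticulum and is needed for resistance to Toxoplasma gondii, lies on chromosome 11 from 58199556 to 58207591 on the plus strand. It had 25.0, 13.3 and 12.7 TPM (17.0 ± 6.96) and was the lowest member in each library. Irgm1 was above Gbp2 in no library, above Gbp7 in replicate 2 only and above Gbp4 in replicate 3 only. The median of the 2 IRG members was 36.7 ± 8.81 TPM and that of the 8 GBP members 92.2 ± 30.2 TPM, a log2 difference in level of -1.53 ± 0.05.

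Some steps in the order of means were wider than the spread between libraries and others were not. Differences are given on the log2(TPM + 1) scale within each library, and flipping the signs of 3 library differences in an exact two-sided permutation test cannot go below p = 0.25. Gbp5 exceeded Gbp6 by 1.37 ± 0.26 and Gbp6 exceeded Gbp9 by 1.09 ± 0.28, in 3 of 3 libraries each. Irgm1 exceeded Igtp by 1.72 ± 0.27, again in 3 of 3. Between these steps the neighbours were not separated beyond their spread in most cases. Gbp9 minus Gbp8 was 0.08 ± 0.19 in the gene table, but 0.33 ± 0.16 and positive in 3 of 3 libraries in the table made from reads. Gbp4 minus Gbp3 was 0.07 ± 0.53, Gbp3 minus Gbp2 was 0.02 ± 0.18 and Gbp7 minus Irgm1 was 0.17 ± 0.26. Gbp8 minus Gbp4 was 0.32 ± 0.47 in the gene table and -0.23 in the table made from reads, where Gbp8 was the higher in 1 of 3 libraries. Gbp2 minus Gbp7 was 0.17 ± 0.12 in the gene table and 0.55 ± 0.08 in the table made from reads, positive in 3 of 3 libraries in both.

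The chromosome 3 and chromosome 5 clusters differed in how their level was spread over genes. The median of the 4 GBP members on chromosome 3 was 73.7 ± 24.7 TPM and that of the 4 on chromosome 5 was 99.1 ± 25.9 TPM, a log2 difference of -0.44 ± 0.13. With the mean over members in place of the median, in which Gbp5 weighs more, the difference was 0.057 ± 0.18, smaller than its spread. The median therefore put chromosome 5 higher in the gene table, while the mean did not separate the clusters.

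Close relatives make some of these levels uncertain. Of the 31-base words in Gbp6 transcripts, 74.3% also occur in another gene, chiefly the readthrough gene Gm43302 (67.8%) and Gbp10 (51.4%). The share was 31.1% for Gbp8, 18.3% for Gbp9, 15.9% for Igtp, 14.9% for Gbp4 and 14.7% for Gbp7. It was 5.64% for Gbp3, 4.85% for Gbp2, 3.1% for Gbp5 and 2.88% for Irgm1, so Gbp5 is among the members with the fewest shared words. The deposited posterior SD of the count describes how far the division of reads was in doubt. It was at most 27.4 reads for Gbp6, or 0.25% of its count in replicate 1, and at most 20.9 for Gbp7. For the overlapping Gbp4, Gbp8 and Gbp9 it was at most 2.23, 1.5 and 0.94 reads, and for Gbp2, Gbp5 and Irgm1 0. In the table made from reads, Gbp6 averaged 164 TPM, 0.751 times its level in the gene table, and Gbp8 73.1 TPM, 0.757 times. Gbp3 averaged 88.8 TPM there, 1.20 times its level in the gene table. The smallest count behind any member was 339, for Igtp in replicate 3, which has a counting error of 5.43%.

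Each of the 10 genes was highest in replicate 1, as were 48.0% of the 4776 protein-coding genes that averaged 10 TPM or more. Of the 10, 7 were at least 1.5-fold higher in replicate 1 than in both other libraries, against 10.4% of those genes. The members below that fold were Gbp6, at 1.37 times replicate 3, Gbp9, at 1.32 times replicate 2, and Irgm1, at 1.29 times replicate 2 and 1.44 times replicate 3. The median member was 1.65 times as high in replicate 1 as in replicate 2 and 1.69 times as high as in replicate 3. The median of the 4776 genes was 1.12 and 1.03 for the same ratios. Gbp4 had the widest range, at 2.80 times its replicate 3 level, followed by Gbp5 at 2.29 times its replicate 2 level. Between the other libraries there was no common direction, since 5 members were lowest in replicate 2 and 5 in replicate 3.

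The size of that difference depended on the scaling. Protein-coding genes held 34.1%, 27.4% and 29.4% of all TPM in replicates 1, 2 and 3. With TPM rescaled to protein-coding genes, all 10 members were still highest in replicate 1, against 28.7% of the 4776 genes, but 2 of 10 reached 1.5-fold over both others, against 3.54%. Those 2, Gbp5 and Igtp, were at 1.84 and 1.51 times replicate 2 and at 1.57 and 1.70 times replicate 3. Leaving out replicate 1, the mean of Gbp5 was 439 TPM and the mean of the family's median 64.7 TPM, against 81.0 TPM with it. No member's mean was more than 1.36 times its value without replicate 1. Replicate 1 had the most starting RNA and the fewest counts of the 3, and the part of either in this pattern was not tested.

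**Figure D2:**
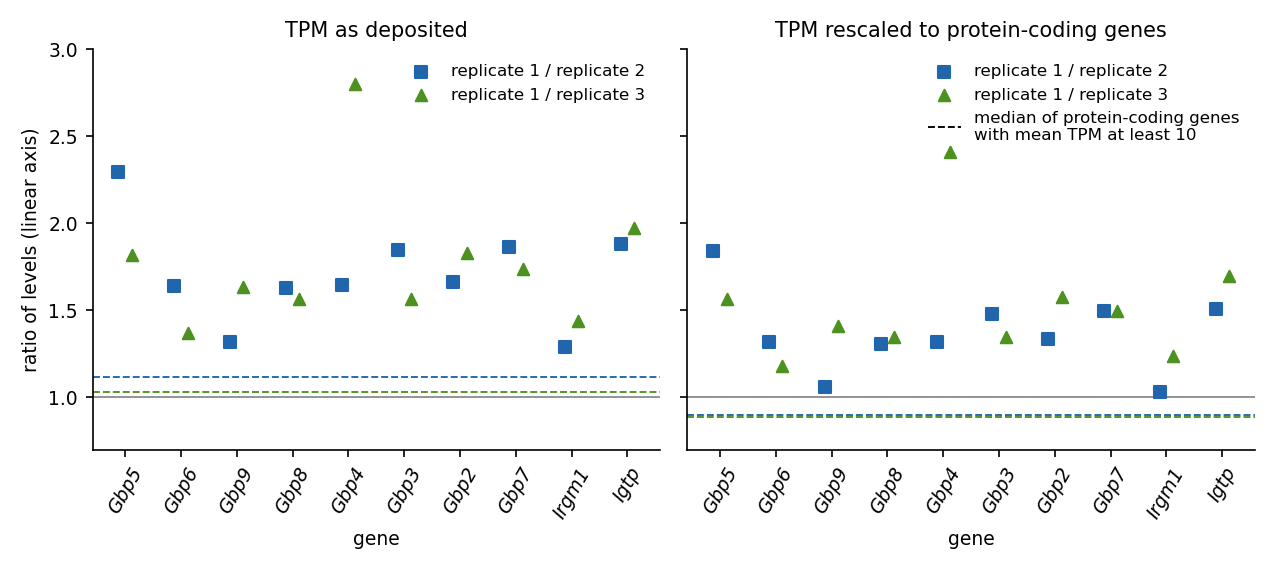
Ratio of each gene's level in replicate 1 to replicate 2 (squares) and replicate 3 (triangles), from TPM as deposited on the left and TPM rescaled to protein-coding genes on the right. Dashed lines are the medians of the 4776 protein-coding genes that averaged 10 TPM or more, in the same colours. The members lie above these medians in both panels, with Gbp4 farthest from 1 at 2.80 on the left.

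From TPM as deposited, replicate 1 was also the highest library for 7 of 7 interferon receptor and kinase genes. It was the highest for 7 of 8 interferon transcription factor genes and 4 of 4 genes of ubiquitin ligases and an adaptor at vacuoles. Of 9 autophagy conjugation genes 5 were highest there, and of the 4776 genes 48.0%. After rescaling to protein-coding genes, all 4 ubiquitin ligase and adaptor genes, Ifngr2, Jak1, Jak2, Tyk2, Irf9, Gabarap and Gabarapl2 had another library highest. The other genes of these lists that were highest in replicate 1 stayed so. Among macrophage markers replicate 1 was the highest for 1 of 8. All 8 markers reached 10 TPM in each library, led by Adgre1 and with Itgam lowest, and their sum was 905, 1103 and 973 TPM in replicates 1, 2 and 3. In the gene table no marker of neutrophils, T or NK cells, B cells, dendritic cells or fibroblasts reached 1 TPM in any library, and S100a8, Ly6g, Cd3e, Cd3g and Ncr1 were at 0. Of the endothelial and erythroid markers, Vwf had 35.9, 15.2 and 25.5 TPM and Alas2 4.63, 5.34 and 3.32 TPM. Pecam1 and Cdh5 stayed below 1 TPM. The table made from reads gave higher values for some of these markers: Mpo, Zbtb46, Siglech and Col1a1 lay between 1.01 and 1.95 TPM in each library, and Pecam1 had 7.11, 8.40 and 7.81 TPM. In bulk RNA a lower share of one kind of cell and less RNA per cell cannot be told apart.

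The members fell into 2 classes by the kind of transcript that carried their RNA. Shares are of the gene's transcript TPM in the table made from alignments. Igtp and Gbp7 lay wholly on transcripts annotated as protein-coding, Gbp2 and Gbp3 lay on them for 99.2% ± 0.70 and 98.9% ± 0.81, and Irgm1 for 95.0% ± 1.18. Gbp5 had 42.0% ± 1.15 on its protein-coding transcript, Gbp8 31.9% ± 4.62, Gbp6 31.8% ± 5.64, Gbp4 27.7% ± 6.49 and Gbp9 26.1% ± 11.7. The median over 9028 protein-coding genes with at least 1 TPM was 53.1% ± 2.55. None of the first 5 genes has a retained-intron transcript in the annotation, and each of the second 5 has 1, so the split follows what is annotated. Unspliced RNA of a gene with no such transcript has no entry of its own to be assigned to.

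Among the 5 genes with a retained-intron transcript, Gbp9 stood apart. It had 85.2%, 63.6% and 68.8% of its TPM there in replicates 1, 2 and 3 (72.5% ± 11.3). Gbp6 had 32.7% ± 4.24, Gbp5 29.8% ± 3.08, Gbp4 13.5% ± 3.01 and Gbp8 7.02% ± 1.52. The median of the 5 was 29.8% ± 3.08 and that of 5882 protein-coding genes with such a transcript 48.1% ± 2.41, a difference of -18.2 ± 0.87 percentage points. It was below that median in each library. Transcripts annotated for nonsense-mediated decay, a pathway that degrades RNA with an early stop codon, held 58.8% ± 5.70 of Gbp4, 35.5% ± 2.40 of Gbp6 and 28.2% ± 2.56 of Gbp5. Gbp2 also has such a transcript, which held 0.80%, and the median of 2904 protein-coding genes with one was 4.22%. A processed transcript without an open reading frame, Gbp8-204, held 61.1% ± 6.08 of Gbp8. The median of the 5 members with a processed transcript was 1.80%, and that of 4391 protein-coding genes 8.07%.

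**Figure D3:**
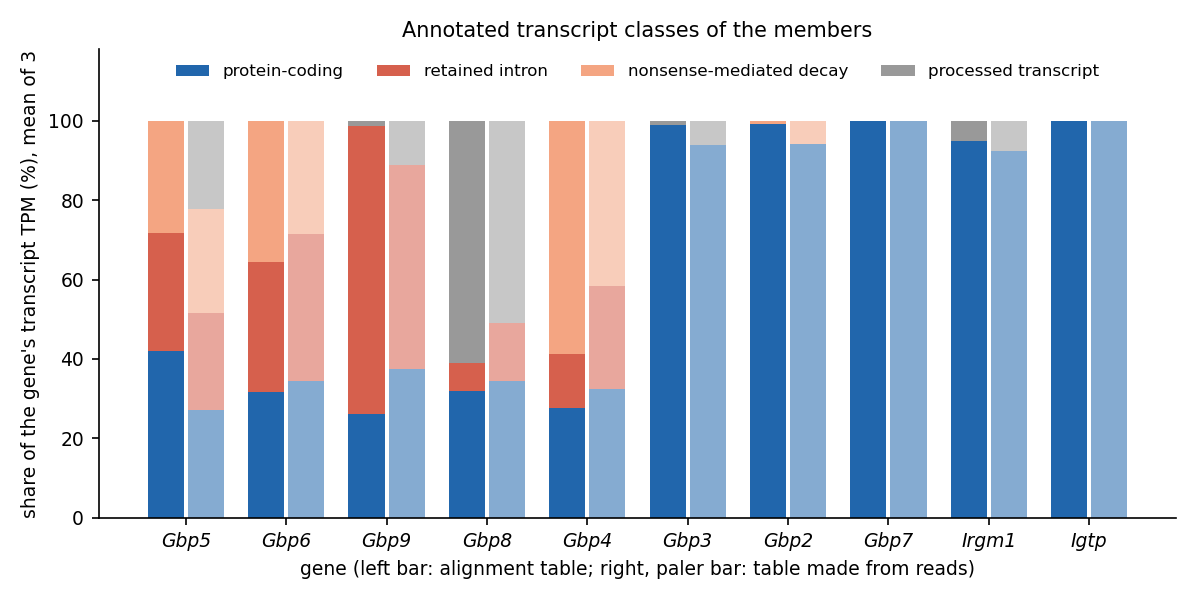
Share of each gene's transcript TPM, in percent, on the 4 annotated transcript classes, as the mean of 3 libraries. The left bar of each pair is the table made from alignments and the paler right bar the table made from reads. Gbp3, Gbp2, Gbp7, Irgm1 and Igtp are almost wholly protein-coding, and Gbp9 has the tallest retained-intron block at 72.5%.

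The extra TPM of replicate 1 was divided between transcript classes in different ways in different genes. The protein-coding share of Gbp5 hardly moved, at 41.3%, 41.4% and 43.3% in replicates 1, 2 and 3, and that of Gbp8 was highest in replicate 1, at 37.2%, 29.3% and 29.2%. Gbp6 and Gbp9 had their lowest protein-coding shares in replicate 1. The protein-coding transcript Gbp6-201 had 70.7, 59.9 and 71.1 TPM in replicates 1, 2 and 3, while the retained-intron transcript Gbp6-202 had 104, 54.5 and 58.8 TPM. Gbp9-201, also protein-coding, had 10.4, 31.3 and 17.5 TPM, and the retained-intron transcript Gbp9-203 had 109.8, 62.0 and 54.2 TPM. Replicate 1 was thus the highest library for the retained-intron transcript of both genes but the lowest for Gbp9-201. The table made from reads gave the same high library for Gbp6-202 and Gbp9-203. There the lowest library for Gbp9-201 was replicate 3, at 14.4 TPM, against 16.1 TPM in replicate 1. The median retained-intron share of all 5882 genes was 50.8%, 46.4% and 47.0% in the 3 libraries, and its part in these values was not tested.

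Gbp3 has protein-coding transcripts that begin at different places. Gbp3-202, with its first base at 142560411, had 70.2, 47.0 and 53.8 TPM in replicates 1, 2 and 3. Gbp3-203, with its first base at 142560052, had 30.1, 6.58 and 10.02 TPM. Gbp3-203 therefore held 29.5% of the gene in replicate 1, against 11.9% and 15.4% in replicates 2 and 3. In the table made from reads Gbp3-203 had 26.9, 3.21 and 6.998 TPM, with the same order of libraries. A further protein-coding transcript, Gbp3-205, with its first base at 142561234, had 20.8, 11.4 and 15.5 TPM there. That was above Gbp3-203 in replicates 2 and 3. In the table made from alignments Gbp3-205 had 0, 0.56 and 0 TPM.

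The transcript tables did not give the same division for every gene. Gbp5-204, a processed transcript that starts upstream of the other Gbp5 transcripts, was listed at 0 in the table made from alignments and had 171, 85.0 and 103 TPM in the table made from reads. The protein-coding share of Gbp5 was 27.2% ± 1.61 there. Gbp9 had 51.3% ± 6.23 on its retained-intron transcript in that table, still the highest of the 5. Gbp6 had 37.0%, Gbp4 26%, Gbp5 24.3% and Gbp8 14.5% there. Transcripts annotated for nonsense-mediated decay held 41.7% of Gbp4, 28.5% of Gbp6, 26.3% of Gbp5 and 5.75% of Gbp2 in that table. The median of 3446 protein-coding genes with such a transcript was 8.30% there. In both tables the protein-coding share of the 5 genes with a retained-intron transcript was at most 44.4% in each library. Irgm1-202, protein-coding, held 63.8% of Irgm1 in the table made from alignments and 30.4% in that made from reads. For Gbp4, Gbp8 and Gbp9, transcripts of all 3 genes begin within a short stretch, with first bases at 105139586 for Gbp4-201 and Gbp4-202, 105139540 for Gbp8-201 and 105139539 for Gbp9-202.

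Promoters are shown because interferon acts on these genes through short elements near the start site. RefSeq (GRCm38.p6, the same assembly as mm10) gave the bases from 250 before to 50 after the start site for 6 of the 10: Gbp2, Gbp3, Gbp5, Gbp7, Irgm1 and Igtp. Gbp4, Gbp6, Gbp8 and Gbp9 were not among them. The core of the interferon-stimulated response element (ISRE), which a complex of STAT2 and IRF9 binds, was searched on both strands as GAAANNGAAA. Capitals mark it in the windows below, which are written along the gene's own strand, so a match on the other strand reads as the reverse complement.
Gbp5, chr3:142496754-142496793, plus strand: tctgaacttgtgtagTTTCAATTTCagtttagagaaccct
Gbp7, chr3:142530268-142530307, plus strand: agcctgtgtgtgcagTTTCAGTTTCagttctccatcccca
Gbp3, chr3:142559984-142560029, plus strand: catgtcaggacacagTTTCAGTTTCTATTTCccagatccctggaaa
Gbp2, chr3:142620589-142620628, plus strand: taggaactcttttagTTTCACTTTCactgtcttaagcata
Irgm1, chr11:48871420-48871465, minus strand: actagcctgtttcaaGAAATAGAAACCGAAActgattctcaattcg
Igtp, chr11:58199507-58199546, plus strand: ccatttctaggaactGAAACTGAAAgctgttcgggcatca
All 6 of the 6 genes held the core, against 3.99% of 27025 genes in the table. Gbp3 and Irgm1 held a pair of overlapping matches each. The match lay at -165 to -156 from the start site in Gbp5, and between -59 and -15 in the other 5 genes. Among other genes of both families, 5 of 7 with a promoter in the table held it.

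The second element searched was the gamma-activated site (GAS), an element of the interferon gamma response, as TTCNNNGAA, which reads the same on both strands. It was present in Gbp5, Gbp7 and Igtp, 3 of 6 members, against 9.55% of genes in the table. The kB site, bound by NF-kB, was present in Gbp5 alone of the 6, against 5.14% of genes. Gbp5 was thus the only one of these 6 with all 3 elements, and its promoter is printed whole, with the elements in capitals in the order GAS, ISRE core, kB site and GAS.
Gbp5 promoter, chr3:142496684-142496983, plus strand: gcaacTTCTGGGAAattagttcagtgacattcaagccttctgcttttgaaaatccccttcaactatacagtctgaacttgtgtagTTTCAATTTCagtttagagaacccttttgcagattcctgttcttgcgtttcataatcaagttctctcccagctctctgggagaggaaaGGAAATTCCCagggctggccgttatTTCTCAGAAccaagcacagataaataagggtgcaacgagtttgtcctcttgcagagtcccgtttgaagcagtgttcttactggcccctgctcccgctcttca
The elements lay at -245 to -237, -165 to -156, -77 to -68 and -52 to -44 from the start site, and no pair of them overlapped. A match of letters does not show that a factor was bound. The RefSeq start of Gbp5, at 142496934, is the first base of Gbp5-202, a transcript annotated for nonsense-mediated decay. Upstream of it begin the protein-coding Gbp5-201, at 142496900, and Gbp5-204, at 142493978, so the distances hold for the RefSeq start only. The RefSeq table gives a second start for Gbp3, 55 bases from the first base of Gbp3-202, and none of the 3 elements was in that window. The windowed ISRE matches of Gbp3 belong to the start 8 bases from the first base of Gbp3-203, whose share of the gene was highest in replicate 1. For Gbp2 the RefSeq start, at 142620663, lies downstream of the first base of the annotated main transcript Gbp2-201, at 142620602. The ISRE match, from 142620604 to 142620613, therefore lies just inside Gbp2-201 by that annotation and not before its start.

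**Figure D4:**
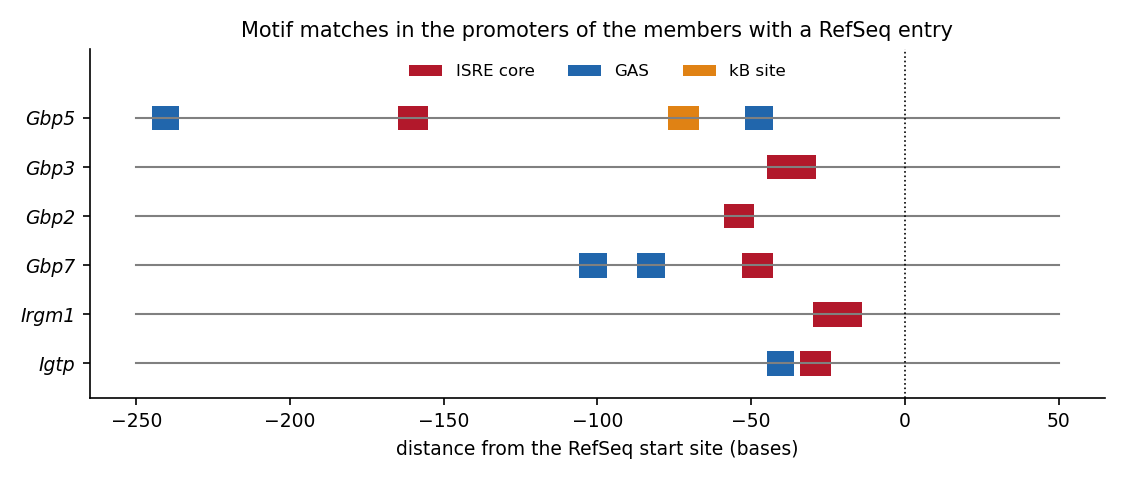
Position of the matches to 3 elements relative to the RefSeq start site (dotted line), in bases, for the 6 genes with a promoter in the table. For Gbp3 only the start nearest Gbp3-203 has matches. ISRE core matches lie between -59 and -15 in 5 genes and at -165 to -156 in Gbp5, the one gene with all 3 elements.

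In the gene table the rest of both families was lower on chromatin than most of the 10 members. The table made from reads, however, put Tgtp2 at a mean of 109 TPM and Ifi47 at 72.4 TPM. By mean Tgtp2 lay above 8 of the 10 there, but in replicate 3 Gbp2, Gbp3, Gbp5, Gbp6 and Gbp9 were above it. Of the other GBP genes, 1 of 3 reached 10 TPM in each library: Gbp11 had 23.8, 11.2 and 10.7 TPM in replicates 1, 2 and 3, and averaged 13.0 TPM in the table made from reads, where it was below 10 TPM in replicates 2 and 3. Gbp10, the near copy of Gbp6, had 11.4, 1.86 and 3.16 TPM, or 2.18, 1.48 and 0.998 TPM in the table made from reads, and Gbp2b 0.70, 0.26 and 0.23 TPM. All 3 were highest in replicate 1. Of the other IRG genes, 4 of 6 reached 10 TPM in each library. Tgtp2, which encodes an effector IRG, was the highest with 69.4, 32.4 and 26.5 TPM, or 177, 87.6 and 63.5 TPM in the table made from reads. Irgq, a family member outside the interferon response, was the lowest with 4.95, 4.76 and 5.82 TPM. Irgm2, the third regulatory IRG, overlaps Igtp on the same strand and had 30.4, 17.8 and 19.5 TPM, above Igtp in each library.

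The genes that lead to GBP and IRG expression were present from receptor to transcription factor. Ifnb1, the ligand gene, had 8.28, 4.07 and 3.32 TPM in replicates 1, 2 and 3, and Ifng, the other ligand gene listed, was at 0 in all 3. All 7 receptor and kinase genes reached 10 TPM in each library, against 19.1% of protein-coding genes. Jak2, which encodes a kinase of the interferon gamma receptor, was the highest of them by mean at 125 ± 35.9 TPM. In replicate 2 Tyk2, at 117 TPM, and Ifnar1, at 88.7 TPM, were above its 85.2 TPM. Ifngr2, a subunit of the interferon gamma receptor, was the lowest at 13.3 ± 2.14. Ifngr2 averaged 56.6 TPM in the table made from reads, where it was still the lowest of the 7. All 8 transcription factor genes reached the limit too. Stat2, a subunit of the complex that binds the ISRE, was highest at 499 ± 94.8 TPM. Batf2 was lowest by mean at 39.6 ± 13.0, but Irf9 was below it in replicates 1 and 2. In the table made from reads Irf9 was lowest at 35.1 TPM and Batf2 had 50.4 TPM. The median of this list was 187 ± 36.0 TPM, above the members' 81.0 ± 28.7.

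Genes whose products act with GBPs and IRGs were measured as well. Of 8 inflammasome genes, 7 reached 10 TPM in each library, against 19.1% of protein-coding genes. From TPM as deposited 7 were highest in replicate 1, against 48.0% of the 4776 genes. After rescaling to protein-coding genes, Gsdmd and Pycard of these 7 had another library highest and the rest did not. Nlrp3, which encodes an inflammasome sensor, led in the gene table with 275 ± 24.0 TPM and Pycard, the adaptor gene, was lowest at 8.29 ± 1.53. Casp4, whose product binds lipopolysaccharide, had 366, 161 and 208 TPM, so like Gbp5 it was highest in replicate 1 and lowest in replicate 2. Casp4 led by mean in the table made from reads, with 334 TPM against 302 TPM for Nlrp3. In both tables, however, Casp4 was above Nlrp3 in replicate 1 only. All 4 genes of ubiquitin ligases and an adaptor that reach pathogen vacuoles passed the limit, from Traf6 at 18.8 ± 1.32 TPM to Rnf213 at 918 ± 62.1, or 602 TPM in the table made from reads. Of 9 autophagy conjugation genes 6 passed it, and their median of 16.2 ± 2.49 TPM was below that of the 10 members. Atg16l1 was the highest of these at 68.6 ± 9.33 TPM and Gabarapl1 the lowest at 3.43 ± 0.21, or 6.27 TPM in the table made from reads.

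**Figure D5:**
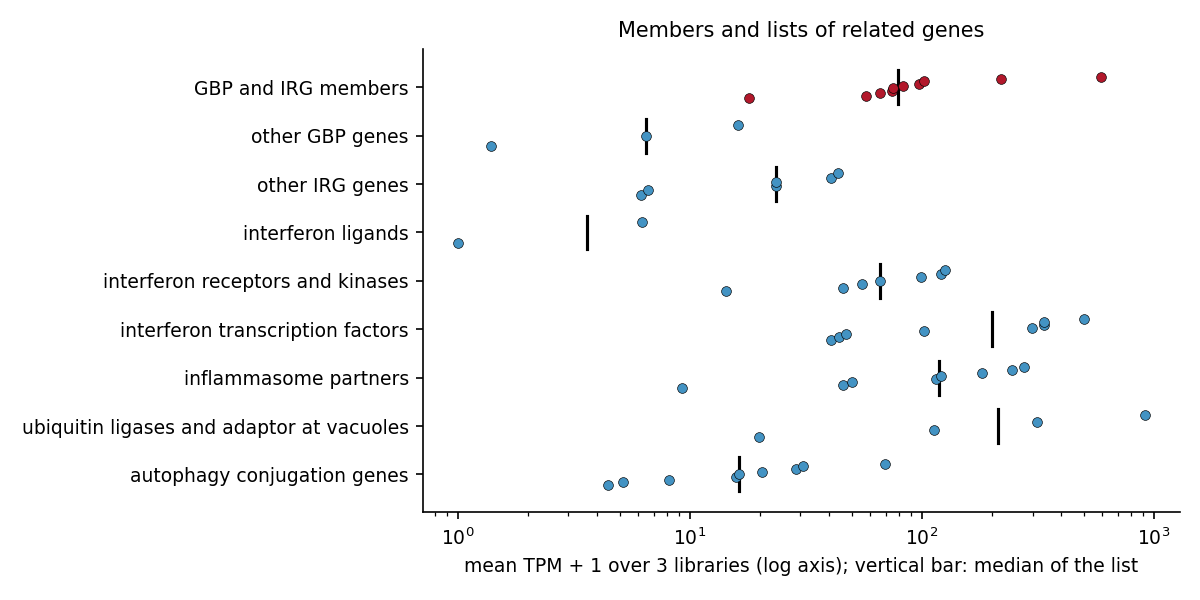
Mean TPM + 1 over 3 libraries on a log axis, 1 point per gene, for the 10 members (top, red) and 8 lists of related genes. Vertical bars are the medians of the points. Gbp5 is the rightmost member, Ifng sits at 0 TPM among the ligands, and the autophagy genes lie below most members.

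The protein-coding genes outside the family whose values lay nearest to those of Gbp5 were Mndal, Fcgr2b, Ctsc, Sod2 and Clec4e. Nearness was the Euclidean distance on log2(TPM + 1) over 3 libraries, so it rests on level as much as on pattern. Mndal, an interferon-inducible gene of the Ifi200 family, had 851, 426 and 452 TPM in replicates 1, 2 and 3, at a distance of 0.19. Clec4e, which encodes a receptor for mycobacterial glycolipid, was the farthest of the 5 at 0.54, with 901, 513 and 628 TPM.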

How the data were processed

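Per the labels, chromatin-fraction RNA of 3 libraries was depleted of ribosomal RNA and sequenced. Per the file headers, the authors deposited for each library a gene and a transcript table made from alignments, with expected counts, TPM, effective lengths and the posterior SD of the count, and a transcript table made directly from reads, with estimated counts and TPM. The assembly is mm10 and the annotation GENCODE M21. The aligner, the quantifiers and the use of strand were not given in the sources used here. Rows that are no annotated gene, 26345 in each library, held 1.34%, 0.292% and 0.416% of counts in replicates 1, 2 and 3. They were left out of library sizes, and TPM were used as deposited. A count of 0 allows up to 3 counts, or 0.24, 0.138 and 0.178 CPM, for counting error only. Between libraries the counts differed by 25.7 to 72.7 times sampling noise (chi-square per degree of freedom), so each was counted as 1 library. This does not show that they are separate cultures.

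The members and lists were chosen with earlier results of these data known. The text names the 10 members, the highest and lowest gene of each list with those a count needs, and the 5 genes nearest to Gbp5. Some named list genes were chosen for their role or for a difference between tables after their values were seen (Casp4, Irgm2, Irf9, Ifi47, Tgtp1). Differences used log2(TPM + 1). Alternatives were the pseudocount, limits, scaling, the table made from reads and leaving out each library. Expected counts were rounded for TMM scaling in edgeR 4.0.16 and for DESeq2 1.42.0 size factors (R 4.3.3). Python 3.11.15, numpy 2.4.6, pandas 2.3.3, SciPy 1.17.1, Biopython 1.88 and matplotlib 3.10.9 did the rest. Coding identity is matches over the shorter sequence. Some genes of the lists are counted but not reported here by name.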

Additional observations from a re-analysis of the deposited data

How the results depend on the processing

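With 1 condition and 3 libraries, every value here describes these libraries, and levels depend on what other RNA shares the TPM total. The log2 difference of chromosome 3 minus chromosome 5 GBP members was -0.44. It was 0.057 ± 0.18 with the mean over members, since Gbp5 then weighs more, and -0.10 ± 0.19 in the table made from reads. Both are smaller than their spread. On TMM-scaled log2 CPM without length correction it was -0.59. For IRG minus GBP members, -1.53 became -1.87 with the mean and -2.16 on TMM-scaled log2 CPM. The retained-intron difference of -18.2 percentage points was -19.4 for genes of at least 5 TPM, -16.8 with no limit, -16.3 with means and -20.2 in the table made from reads. At a limit of 50 TPM, 6 members passed in place of 10, against 5.02% of protein-coding genes. The 7 members at least 1.5-fold higher in replicate 1 became 2 after rescaling to protein-coding genes (3.54% of the genes they are set beside), 0 at 2-fold (1.99%), 5 with TMM (6.2%) and 6 with DESeq2 scaling (7.16%). Beyond what the text states, the cause was not tested. Leaving out 1 library gave -0.50 to -0.37, -1.54 to -1.50 and -18.6 to -17.7 for the 3 differences. No paired analysis was possible because all libraries belong to 1 group. The median protein-coding share, an alternative chosen after seeing the data, was 68.5% and 66.8% in the table made from reads. No member lay near it: in the table made from alignments, shares were 95.0% and above or 42.0% and below.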

Other observations

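Some low family entries varied far more between libraries than the 10 members did. Gm43802, a processed pseudogene inside the Gbp7 body on the same strand, had 23.4, 1.58 and 0 TPM in replicates 1, 2 and 3, and 10.8% of the 31-base words of Gbp7 occur in it. Tgtp1, the near copy of Tgtp2, had 11.5, 2.92 and 2.33 TPM. Gm43302, the readthrough gene over Gbp6 and Gbp10, stayed between 0.16 and 0.68 TPM. Division of reads between near copies is uncertain for all of these.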
